A study of Mus musculus with 31 samples.

Results

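Mitochondrial ATP production by oxidative phosphorylation was examined here at the level of its nuclear genes, the RNAs for the protein subunits of respiratory complexes I to IV and of ATP synthase (complex V). Members were the protein-coding rows of the gene count table whose symbols start with Nduf followed by a, b, c, s or v and a number, or with Uqcr, Atp5 or Cox with a number from 4 to 8, together with Sdha, Sdhb, Sdhc and Sdhd; pseudogene symbols and the Ndufaf assembly factors were left out. The rule gave 85 rows of 55492, which carry 84 symbols because Atp5o occurs on 2 rows. Of these 2, the row at chr16:91684398-91926982 was treated as a readthrough row. It has 530 exon bases, and its exons overlap those of 2 other genes. Both Atp5o rows enter the counts, medians and sums of complex V. By symbol, 37 rows belonged to complex I, 4 to complex II, 8 to complex III, 18 to complex IV and 18 to complex V. Ndufa4 was counted with complex I by its symbol, although its protein is now regarded as a complex IV subunit.

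The RNA came from long-term haematopoietic stem cells of mouse bone marrow, sorted as Lin- Sca1+ cKit+ CD150+ CD48-. The donors carried either SclCre;FF1;GFP (VF), a human JAK2-V617F transgene that gives a myeloproliferative neoplasm, or the same alleles with Dnmt3Δ/Δ (VFDM; labelled VF;Dm), a knockout of the DNA methyltransferase Dnmt3a. Marrow of either genotype was transplanted into wild-type mice with a 10-fold excess of wild-type marrow. From 4 weeks after transplantation the recipients received, for 8 weeks, vehicle, pegylated interferon alpha (IFN, 25 µg/kg under the skin each week), 5-azacytidine (AZA, 2 mg/kg into the peritoneum each day) or both at these doses (COMBO). Each of the 8 groups had 4 libraries except VFDM COMBO, with 3 (replicates 2, 3 and 4). Recombination depended on SclCre, a Cre named for a gene active in blood cells. All recipients also carried wild-type marrow, the gate as labelled does not name GFP, and the labels do not say whether each library came from a separate mouse, so the spread behind each p-value is that between libraries, which may be technical. The question posed by the design is how the stem cells of each genotype respond to each drug.

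Complex I takes electrons from NADH and complex II from succinate. Complex III passes them through cytochrome c to complex IV, which reduces oxygen, and ATP synthase uses the proton gradient built on the way to make ATP. All complexes except complex II combine nuclear subunits with subunits encoded in mitochondrial DNA, and long-term stem cells are known for relying less on this pathway than the dividing progenitors they give rise to.

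Promoter sequence was available for 66 of the 84 symbols, as 71 RefSeq windows (GRCm38.p6) of 300 bases that run from 250 bases before the annotated start to 50 after it. On either strand, the consensus motif of NRF1, a regulator of respiratory genes, stood in 18 windows (25.4%, against 4.6% of all 32851 windows in the table). The ETS motif CCGGAAG, bound by GABP, stood in 16 (22.5%, against 8.86%), and the YY1 motif AAGATGGCG in 7 (9.86%, against 1.4%). At least 1 of the 3 stood in 49.3% of member windows and in 13.6% of all windows, and the median number of CpG dinucleotides was 19 against 7. The 5 windows below belong to members on which the later comparisons turn: Atp5b rose under COMBO in VFDM, Cox7a2l was called under all 3 treatments in VF, and Atp5e, Cox8a and Cox6a1 responded differently to COMBO in the 2 genotypes. They are written 5′ to 3′ on the gene's strand, with motif letters in capitals; CTTCCGG is the ETS motif read on the other strand. Atp5b (chr10:128083057-128083356, plus strand) held 18 CpGs and none of the 3 motifs. Cox7a2l (chr17:83514284-83514583, minus strand) held 19 and no motif. Atp5e (chr2:174464052-174464351, minus strand) held 22 and 1 ETS motif. Cox8a (chr19:7217567-7217866, minus strand) held 19 and 2 ETS motifs. Cox6a1 (chr5:115348909-115349208, minus strand) held 32 CpGs, 2 NRF1 motifs and 1 ETS motif. A motif match describes the letters of the window, and binding was not measured.
Atp5b: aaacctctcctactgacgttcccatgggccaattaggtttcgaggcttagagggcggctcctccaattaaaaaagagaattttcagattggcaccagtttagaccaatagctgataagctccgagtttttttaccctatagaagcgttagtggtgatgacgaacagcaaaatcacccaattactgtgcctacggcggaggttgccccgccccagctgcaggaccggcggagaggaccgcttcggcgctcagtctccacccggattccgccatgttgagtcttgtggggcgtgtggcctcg
Cox7a2l: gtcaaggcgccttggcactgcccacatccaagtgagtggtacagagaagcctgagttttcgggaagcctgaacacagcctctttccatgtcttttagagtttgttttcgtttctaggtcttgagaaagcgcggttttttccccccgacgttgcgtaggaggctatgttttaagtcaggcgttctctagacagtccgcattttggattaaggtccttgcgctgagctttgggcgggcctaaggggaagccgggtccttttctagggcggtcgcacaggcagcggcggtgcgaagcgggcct
Atp5e: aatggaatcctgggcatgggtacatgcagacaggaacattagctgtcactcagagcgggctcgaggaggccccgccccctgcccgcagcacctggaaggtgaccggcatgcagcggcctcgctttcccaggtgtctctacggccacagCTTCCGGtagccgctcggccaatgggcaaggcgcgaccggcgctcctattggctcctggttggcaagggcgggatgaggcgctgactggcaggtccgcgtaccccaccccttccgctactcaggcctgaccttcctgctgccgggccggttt
Cox8a: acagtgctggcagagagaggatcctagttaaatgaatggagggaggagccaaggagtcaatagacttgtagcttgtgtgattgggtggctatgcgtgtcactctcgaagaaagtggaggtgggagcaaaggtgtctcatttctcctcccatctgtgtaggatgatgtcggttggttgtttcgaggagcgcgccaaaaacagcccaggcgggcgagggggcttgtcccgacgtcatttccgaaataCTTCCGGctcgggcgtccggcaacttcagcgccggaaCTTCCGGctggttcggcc
Cox6a1: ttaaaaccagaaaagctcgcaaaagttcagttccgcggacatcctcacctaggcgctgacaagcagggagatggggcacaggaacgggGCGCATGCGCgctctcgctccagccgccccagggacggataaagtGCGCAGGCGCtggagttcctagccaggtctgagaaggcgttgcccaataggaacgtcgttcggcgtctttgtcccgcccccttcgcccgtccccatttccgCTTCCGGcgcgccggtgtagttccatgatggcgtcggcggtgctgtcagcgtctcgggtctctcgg

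Of the 85 members, 81 passed the filter on low counts and were tested, among 22172 rows in all. The 4 others were Cox7b2 and Cox8c, with 0 counts in all 31 libraries, Cox8b, at 0 in 29 libraries, and Ndufa4l2, at 0 in 27. Levels are CPM, counts per 1000000 of the scaled library, and CPM per kilobase of exon where genes are compared. Together the members took 0.296% to 0.489% of a library's counts. The median tested member stood at 20.5 CPM per kilobase against 3.64 over the 22099 tested rows with a length. Of the 81, 73 lay above that median and 37 above 23.6, the 90th percentile of all rows.

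Median levels per kilobase were similar across the complexes, at 16.9 for complex I, 22.5 for complex II, 27.9 for complex III, 20.5 for complex IV and 22.4 for complex V. The 2 highest levels were those of ATP synthase subunits, Atp5a1 (subunit alpha) at 140 CPM per kilobase and Atp5b (subunit beta, which holds the catalytic sites) at 94.6. Cox8a (79.3) and Cox4i1 (67.0), widely expressed isoforms of complex IV, came next, ahead of Atp5c1 (subunit gamma of ATP synthase, the rotating shaft) at 63.3. The highest of complex I was Ndufb9 (46.5), a subunit of its membrane arm. In complex II it was the flavoprotein Sdha (49.4), the only subunit that binds succinate, and in complex III the hinge subunit Uqcrh (48.4).

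**Figure D1:**
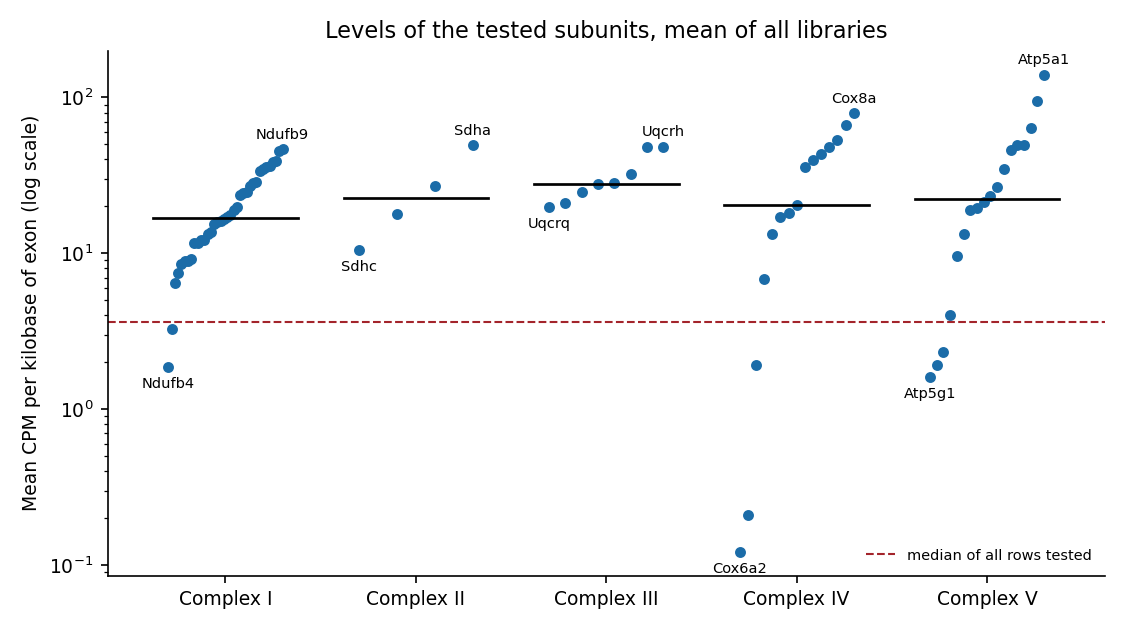
Mean level over 31 libraries of each tested subunit, in CPM per kilobase of exon on a log axis, by complex. Each point is 1 member, the black line is the median of the complex, and the dashed red line is the median of all tested rows (3.64); Atp5a1 (140) lies highest and Cox6a2 (0.122) lowest.

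Where a subunit has tissue-specific isoforms, the widely expressed form was the abundant one. Cox4i1 stood at 67.0 CPM per kilobase and Cox4i2, the form known from lung and from low oxygen, at 1.93. The liver-type Cox6a1 stood at 35.8 and the heart and muscle form Cox6a2 at 0.122. Cox6b1 (43.4) exceeded Cox6b2, the testis form, which at 6.88 was nonetheless present. In the Cox7a family, Cox7a2l, whose protein joins complexes III and IV into supercomplexes, stood at 53.6, Cox7a2 at 18.1 and the muscle form Cox7a1 at 0.209. Cox7b (39.8) and Cox8a (79.3) had Cox7b2 (0), Cox8b (0.467) and Cox8c (0) as their silent or nearly silent relatives. Ndufa4 stood at 11.6 and Ndufa4l2, a hypoxia-induced relative, at 0.00442. The 3 genes that encode the same c-ring subunit of ATP synthase differed in level, with Atp5g3 at 19.4, Atp5g2 at 1.91 and Atp5g1 at 1.61. The length used is that of all annotated exons merged, 4912 bases for Atp5g1 and 1675 for Atp5g2. By CPM alone Atp5g3 (42.3) was again highest, but Atp5g1 (7.91) lay above Atp5g2 (3.19). Atp5s, named as a coupling factor, stood at 4.04.

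Some of these levels are limited by shared sequence. The annotated pseudogene Ndufb4c collected 20921 counts and Ndufb4 itself 3926, so that 58.1% to 100% of their joint counts per library (median 83.5%) fell on the pseudogene. For Cox6c and Cox6c2 that share was 16.9% to 37.5% (median 29.3%). Exons of 30 members overlapped those of another gene, among them Cox4i1, Ndufs1, Cox6a2, Atp5f1 and Ndufa2, which are described below.

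Total counts per library ran from 17782394 to 73910928, with 17087 to 28851 rows detected. VF vehicle replicates 1 and 4 stood apart by mitochondrial RNA. The summed level of the 13 mitochondrially encoded subunits was 1680 and 583 CPM in them, 7250 and 10500 in VF vehicle 2 and 3, and 5740 to 9840 in all other libraries. Small RNA classes took 22.3%, 24.9%, 8.49% and 37.5% of counts in VF vehicle 1 to 4 and 5.02% to 10.5% elsewhere, so replicate 2 was high by this measure too, and the TMM scaling factors of replicates 2 and 4 were 0.753 and 0.719. Calls of members against VF vehicle are given below with and without replicates 1 and 4, and their counts also without each vehicle replicate alone. Dnmt3a, the deleted gene, stood at 109 to 120 CPM in VFDM vehicle and at 162 to 297 in VF vehicle. It stood at 83.4 to 107 CPM in VFDM AZA, at 51.5, 23.0 and 57.0 in VFDM COMBO and at 104 to 193 in VF COMBO. Reads outside a deleted stretch still count here, as would those of any wild-type cells in the sort, and their shares were not tested. The library labelled VFDM IFN 3, at 162 CPM, lay within the VF IFN range of 160 to 178, and the other VFDM IFN libraries at 102 to 111. The sorting gene Slamf1 (CD150) was present in every library. In VFDM COMBO the stem-cell marker Procr stood at 0.0315, 0.0575 and 0.439 CPM against 33.9 to 40.4 in VFDM vehicle, and 12 erythroid markers summed to 2350, 20900 and 4380 CPM against 248 to 1220 in the libraries of all other groups.

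Summed over all members, nuclear subunit RNA was higher in VFDM COMBO than in VFDM vehicle in every library. The sums were 3330, 3310, 3480 and 3650 CPM in VFDM vehicle, and 4380, 3950 and 4660 in VFDM COMBO. VFDM IFN (3490, 3830, 4230 and 3800 CPM) and VFDM AZA (3940, 3720, 3950 and 3850 CPM) lay between them in their means. Within VF the groups overlapped, at 3550, 4880, 3920 and 4540 CPM in VF vehicle, 2900, 4170, 4100 and 3620 in VF IFN, 4860, 3500, 3950 and 3810 in VF AZA, and 4340, 3290, 4430 and 4700 in VF COMBO. The mitochondrially encoded subunits did not separate the groups, and 0 of 13 were called by edgeR in any of the 17 comparisons made. Of the 221 single edgeR tests, 4 had an unadjusted p under 0.05. Among the 13, mt-Co2, mt-Co3, mt-Atp6 and mt-Atp8 stood at 0.0578 to 4.80 CPM over all libraries, against 215 to 2790 for mt-Co1. These 4 genes were barely counted, so the missing calls say little about them. In VF COMBO against VF vehicle, 1 of the 13 was called lower without VF vehicle 1 and 4.

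**Figure D2:**
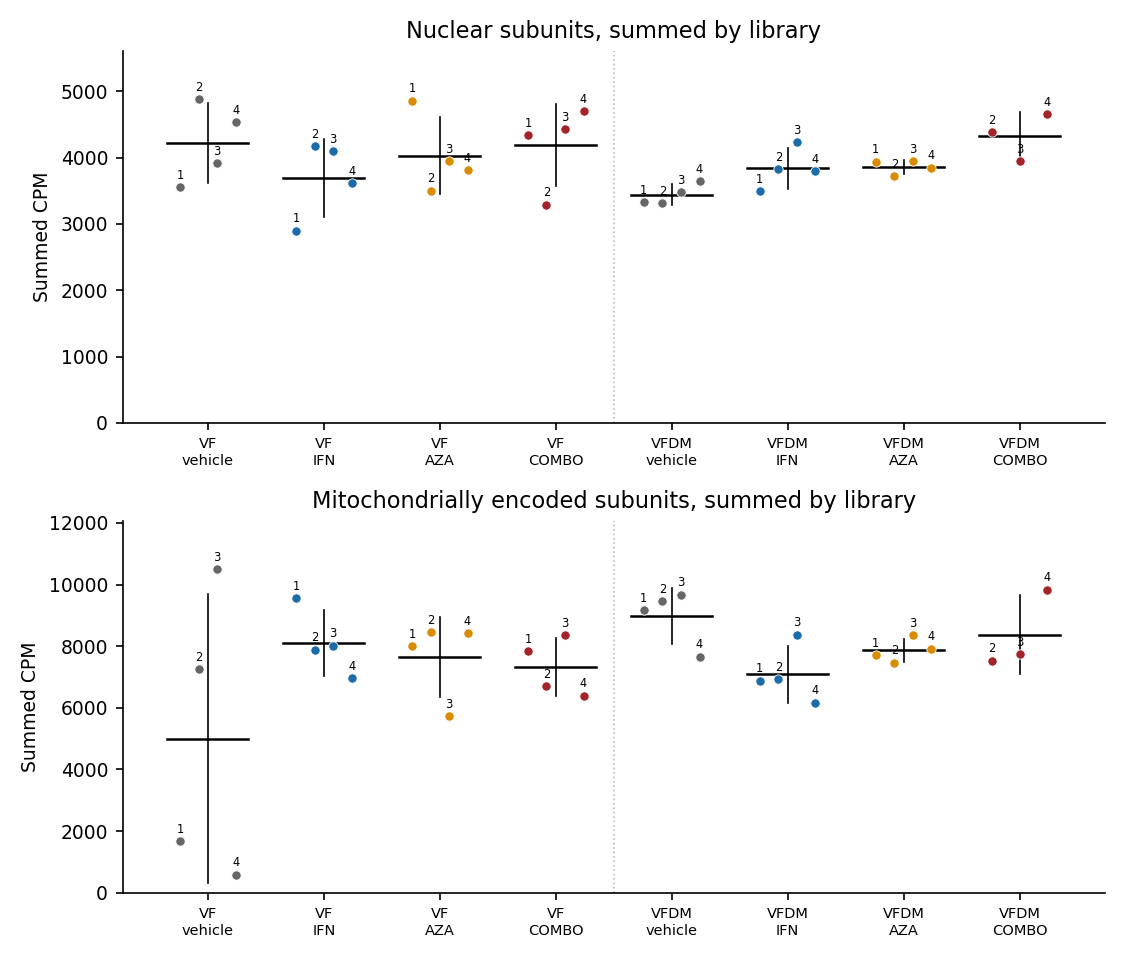
Summed CPM of the nuclear members (top) and of the 13 mitochondrially encoded subunits (bottom) in each library, numbered by replicate, with the group mean as a line and the SD as a bar. In the top panel VFDM COMBO (3950 to 4660) lies above VFDM vehicle (3310 to 3650); in the bottom panel VF vehicle 1 (1680) and 4 (583) lie below all others.

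In Dnmt3a-deleted cells most nuclear subunits had positive log2 fold changes under the combination, but few passed the test. Of the 81 tested members, 70 had a positive log2 fold change in VFDM COMBO against VFDM vehicle, and the median was 0.38 against -0.08 over all tested rows. By the test on single members 3 rose and 1 fell (3.7% and 1.23% of members, against 5.52% and 10.5% of all rows), by edgeR's quasi-likelihood test at an adjusted p under 0.05. The groups did not overlap for 29 members that were higher in COMBO and for 1 that was lower (35.8% and 1.23%, against 13.3% and 23.4% of all rows). Median log2 changes were 0.30 for complex I, 0.32 for complex II, 0.33 for complex III, 0.57 for complex IV and 0.39 for complex V. Every member of complexes II and III had a positive value. Non-overlapping higher groups were found for 10 of 36 members of complex I, 0 of 4 of complex II, 2 of 8 of complex III, 8 of 15 of complex IV and 9 of 18 of complex V. Sequencing depth also differed without overlap between these groups. VFDM COMBO libraries had 17782394 to 31222213 counts and 18450 to 21262 detected rows. VFDM vehicle libraries had 32932549 to 45344180 counts and 23753 to 26202 detected rows. The part of depth in the member and all-row values was not tested.

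Atp5b (chr10:128083273-128090391) encodes the beta subunit of ATP synthase. It stood at 303, 305, 305 and 337 CPM in VFDM vehicle and at 488, 442 and 513 CPM in VFDM COMBO. All 3 COMBO libraries lay well above all 4 vehicle libraries. The log2 change was 0.62 ± 0.14 (SE, n = 4 and 3, edgeR adjusted p = 0.00241), and it was called in all 16 alternative settings that gave it a value, with log2 changes of 0.60 to 0.72. Its catalytic partner Atp5a1, with a log2 change of 0.23, was not called (edgeR adjusted p = 0.214).

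Ndufs1 (chr1:63143596-63176833) encodes the largest subunit of complex I, which carries iron-sulfur clusters in the arm that receives electrons from NADH. It stood at 73.4, 65.2, 65.9 and 71.4 CPM in VFDM vehicle and at 116, 81.6 and 89.2 CPM in VFDM COMBO. The groups did not overlap, and replicate 2 of COMBO was the highest of the 31 libraries. The log2 change was 0.47 ± 0.15 (SE, n = 4 and 3, edgeR adjusted p = 0.0328). The call was lost without VFDM COMBO 2 (log2 change 0.35, edgeR adjusted p = 0.176) and without VFDM vehicle 2 (0.50, edgeR adjusted p = 0.0505).

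The other 2 called members were minor isoforms of complex IV at low levels. Cox4i2 (chr2:152754173-152765037) stood at 1.21, 0.828, 1.41 and 0.505 CPM in VFDM vehicle and at 0.0315, 0 and 0 CPM in VFDM COMBO. These are 164 counts in the 4 vehicle libraries and 1 count in the 3 COMBO libraries, a depth-scaled ratio of 0.0125 with an exact 95% interval of 0.000316 to 0.0709 that covers counting error only. The test called it lower (edgeR adjusted p = 0.0281). Cox6a2 (chr7:128205435-128206387), the heart and muscle form, was at 0 in all 4 VFDM vehicle libraries and at 0, 1.09 and 0.753 CPM in VFDM COMBO. Its 43 counts against 0 make it at least 29.5-fold higher, taking 3 counts over the vehicle group as the floor (edgeR adjusted p = 0.0345). The COMBO library at 0 was replicate 2, so the groups overlapped. Cox6a2 was at 0 in 25 of the 31 libraries and was highest in VFDM COMBO, through which it could pass the filter on low counts, so its call supports nothing further. Cox4i2 lost its call without any 1 of the COMBO libraries (edgeR adjusted p = 0.0558 without replicate 2, 0.0952 without 3 and 0.112 without 4). Cox6a2 lost it without any vehicle library (edgeR adjusted p = 0.0686 to 0.073), without VFDM COMBO 3 (0.0774) and without VFDM COMBO 4 (0.0627). Cox8b, another heart and muscle isoform, was too low to test, with counts only in VFDM vehicle 4 (0.189 CPM) and VFDM COMBO 4 (5.02 CPM).

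**Figure D3:**
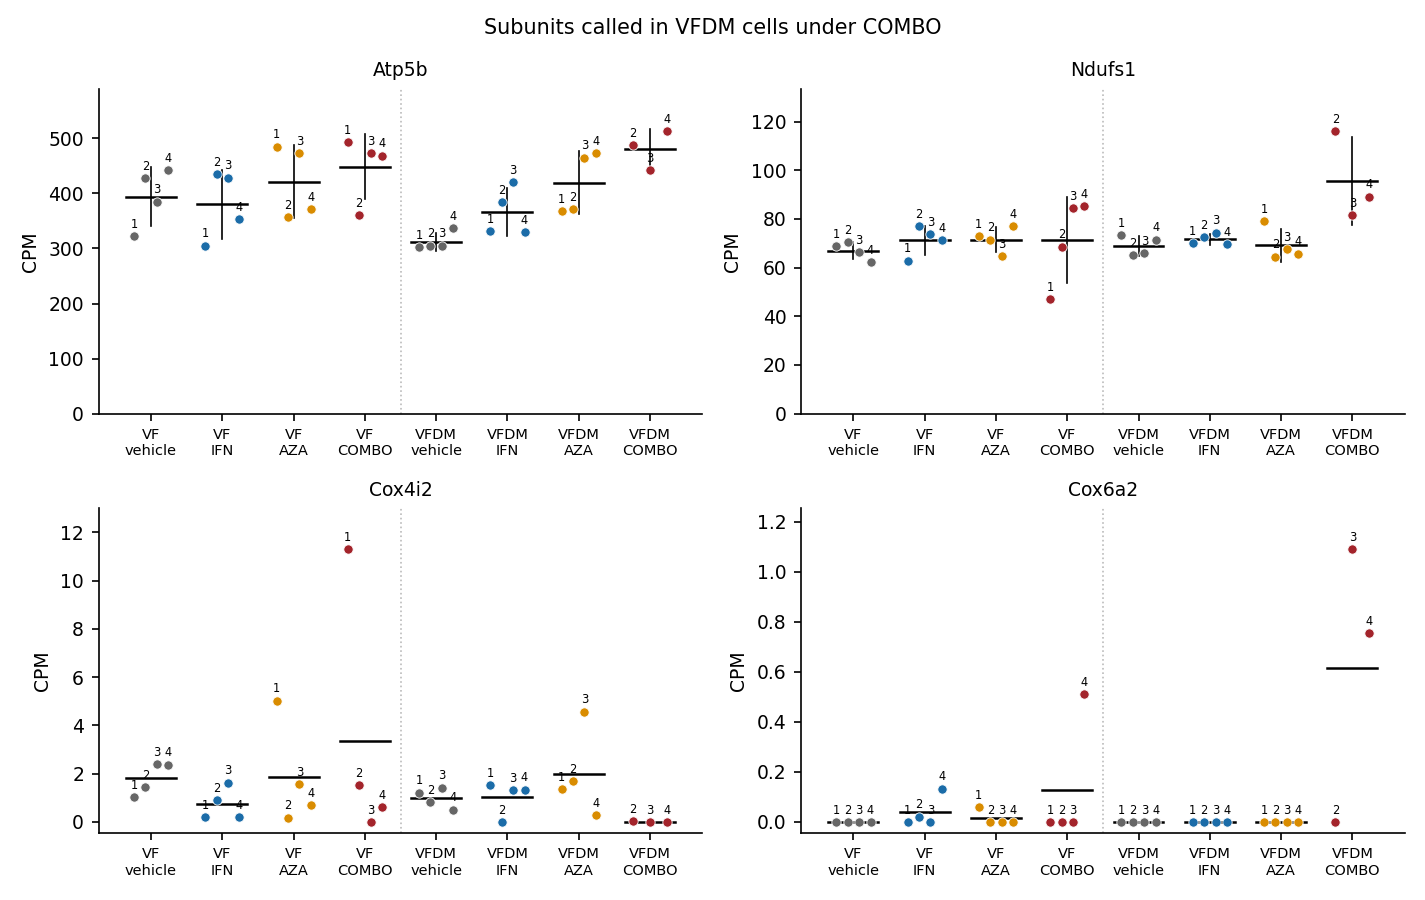
CPM of Atp5b, Ndufs1, Cox4i2 and Cox6a2 in each library by group (replicate points, mean as a line, SD as a bar where no library of the gene is at 0). In VFDM COMBO, Atp5b (442 to 513) and Ndufs1 (81.6 to 116) lie above VFDM vehicle, Cox4i2 is at 0 in 2 of 3 libraries, and Cox6a2 is above 0 in 2 of 3.

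The count of called members in this comparison differed between settings. Fitted on the libraries of these 2 groups alone, 24 members rose and 1 fell. Without the 8 libraries of all groups that had under 20000 detected rows, 22 rose and 1 fell; VFDM COMBO 3 is among those 8. Leaving out VFDM COMBO 3 alone gave 8 called members and a median of 0.43, with 75 members positive, and leaving out VFDM vehicle 2 gave 2 called members. The shares of all rows called in these settings are not given here, so these counts do not set the members apart from other rows. Without VFDM COMBO 3, Atp5b (0.71, edgeR adjusted p = 0.00231) and Ndufs1 (0.60, edgeR adjusted p = 0.0174) were called. VFDM COMBO 3 was also the library with the highest erythroid sum. The erythroid sums of the other VFDM COMBO libraries, given above, also exceeded those of all other groups, so leaving it out did not remove that difference.

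Other respiratory genes in the same comparison were counted from fixed lists. Of 18 citric acid cycle genes 3 rose, citrate synthase Cs (log2 change 0.71), Dlst (0.61) and Mdh2 (0.59). Among 48 assembly factors 4 rose, including Lrpprc (0.57), Cox17 (0.77), the copper carrier for complex IV, and Cox10 (0.99), a haem synthesis enzyme. Of 78 mitochondrial ribosomal proteins 2 were called, Mrpl12 (0.90) and Mrpl52 (1.03), and 61 had positive values. Of 9 carriers and uncoupling genes 3 rose, Ucp2 (0.99), the ATP synthase inhibitor Atpif1 (1.13) and the ADP/ATP carrier Slc25a5 (0.70). Of 18 glycolysis genes 2 rose, Hk1 (0.81) and the lactate carrier Slc16a1 (1.06), and 5 fell, among them Ldhb (-3.32) and Pkm (-1.49). The regulator list of 18 had 2 genes higher, Pprc1 (0.93) and Nrf1 (0.54), and 2 lower, Hif1a (-0.98) and Ppargc1a. Of 35 cytosolic ribosomal proteins 24 had positive values. Among cell type markers, 11 of 12 erythroid genes rose, such as Tfrc (2.40), 4 of 8 neutrophil genes rose, and 6 of 11 stem-cell markers fell, such as Hlf (-3.67) and Mecom (-3.05). In VFDM COMBO 2, 3 and 4 the erythroid sums were 2350, 20900 and 4380 CPM, and the member sums 4380, 3950 and 4660 CPM. Replicate 3 thus had the highest erythroid sum and the lowest member sum of the group. The stem-cell marker sums were 1040, 965 and 901 CPM (1140 to 2200 in all other libraries). The part of these markers in the subunit changes was not tested. A change in the mix of cells and a change in RNA per cell cannot be told apart in these bulk libraries.

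Under the single drugs, Dnmt3a-deleted cells had small positive values that did not pass the test. In VFDM IFN against the same vehicle libraries, 71 of 81 members were positive with a median log2 change of 0.17 against -0.01 over all rows. The groups did not overlap for 9 members that were higher (11.1%, against 5.87% of all rows), 7 of them in complex I. By edgeR 0 members were called (against 0.965% of all rows), with 1 higher and 0 lower at an unadjusted p under 0.05; DESeq2 called 0 and limma voom with quality weights 2. Without the library labelled VFDM IFN 3 the median was 0.09, with 61 members positive. In VFDM AZA against vehicle, 56 members were positive with a median of 0.13 against -0.04, and the groups did not overlap for 6 that were higher (7.41%, against 5.11%). Here too 0 were called by edgeR (against 0.925% of all rows), 0 by DESeq2 and 0 by limma voom, with 3 higher and 0 lower at an unadjusted p under 0.05. Atp5b was 1 of the 6, at 368, 372, 465 and 473 CPM under AZA, all above the 303 to 337 CPM of vehicle, with a log2 change of 0.43 (edgeR adjusted p = 0.167). Markers of other cell types were also called in these comparisons. In VFDM IFN 3 of 7 megakaryocyte and 3 of 8 neutrophil genes rose, and in VFDM AZA 4 of 12 erythroid and 1 of 7 megakaryocyte genes. The megakaryocyte sums were 597 to 1270 CPM in VFDM IFN and 394 to 687 in VFDM AZA against 301 to 472 in VFDM vehicle. The part of these markers in the member values was not tested.

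**Figure D4:**
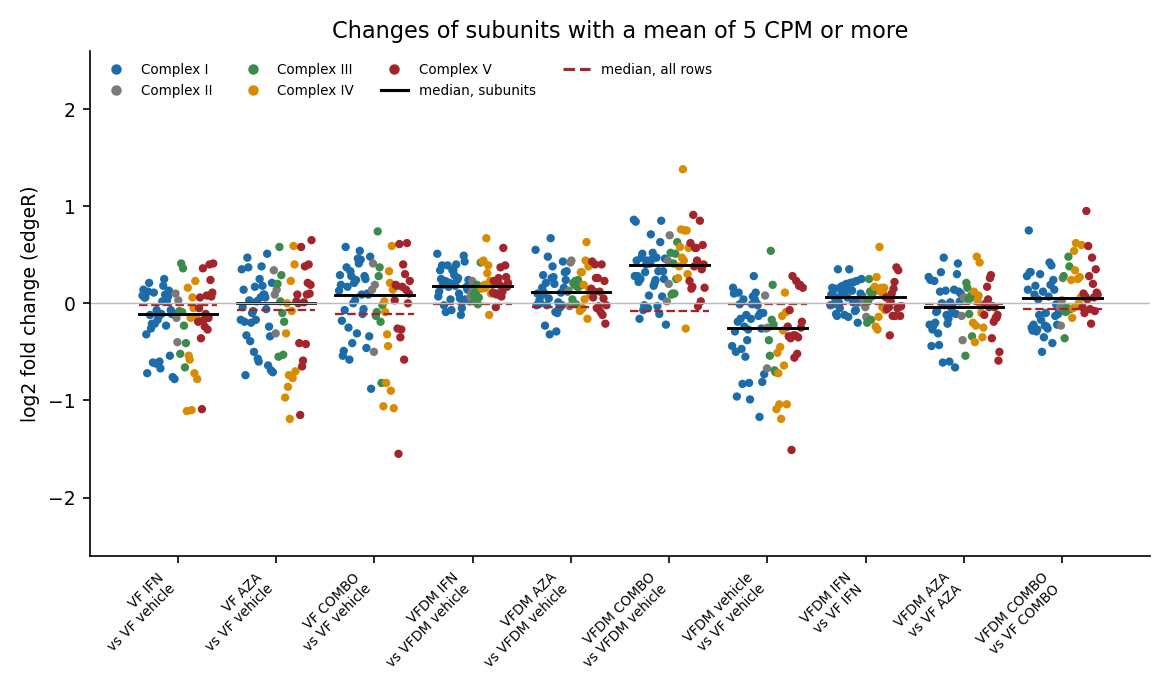
Log2 fold changes of the members with a mean of at least 5 CPM in 10 comparisons, coloured by complex, with the member median in black and the median of all tested rows in dashed red. The members of VFDM COMBO against VFDM vehicle lie mostly above 0 and those of VFDM vehicle against VF vehicle mostly below.

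VFDM COMBO was also set against each single drug in VFDM. The median member log2 change was 0.15 against IFN and 0.23 against AZA, with 60 and 63 members positive. The single called member in each was Cox4i2, lower in COMBO (1.23% of members in each, against 6.28% and 5.87% of all rows called lower). It had 146 counts in VFDM IFN and 231 in VFDM AZA against 1 in VFDM COMBO, ratios of 0.0124 (exact 95% counting interval 0.000313 to 0.0704) and 0.00583 (0.000147 to 0.0328). VFDM IFN overlapped COMBO, because its replicate 2 was at 0. Against IFN the call was lost without VFDM IFN 1, 3 or 4 or any COMBO library (edgeR adjusted p = 0.0657 to 0.163), and against AZA without any COMBO library (0.0512 to 0.0963). The count of called members was 2 against IFN without VFDM COMBO 3, where the median was 0.28, and 2 against AZA without VFDM AZA 1 or 4. These comparisons and the one with vehicle share the COMBO libraries.

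In Dnmt3a-intact cells a few subunits were called lower in the treated groups than in VF vehicle. By edgeR, 2 members were lower and 0 higher in VF IFN (2.47% and 0% of members, against 1.16% and 1.27% of all rows). In VF AZA 2 were lower and 0 higher (against 0.902% and 0.293% of all rows). In VF COMBO 6 were lower and 1 higher (7.41% and 1.23%, against 4.13% and 4.16%). Member medians were -0.11 against -0.02 over all rows for IFN, 0.01 against -0.07 for AZA and 0.10 against -0.11 for COMBO. The 3 comparisons share the VF vehicle libraries. In VF vehicle 4, 6 of 81 members lay more than 1 log2 unit above the mean of vehicle 1 to 3 (7.41%, against 2.87% of all rows), 4 of them among the 15 of complex IV (26.7%). Another 6 members lay more than 1 log2 unit below that mean (against 1198 of 22172 rows), and the member median was -0.01.

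Cox4i1 (chr8:120668222-120674207) encodes the widely expressed form of the regulatory subunit 4 of complex IV. It stood at 142, 163, 98.2 and 345 CPM in VF vehicle, 61.1, 102, 94.7 and 87.7 in VF IFN, 123, 70.2, 97.4 and 90.6 in VF AZA, and 117, 60.7, 62.8 and 118 in VF COMBO. VF vehicle 4 was the highest of the 31 libraries, and each treated group overlapped vehicle. The log2 changes were -1.11 ± 0.25 for IFN (SE, n = 4 and 4, edgeR adjusted p = 0.00869), -0.97 ± 0.25 for AZA (0.0438) and -1.06 ± 0.25 for COMBO (0.00716). Without VF vehicle 4 they were -0.63 (edgeR adjusted p = 0.169), -0.49 (0.506) and -0.57 (0.11). The call was also lost without VF IFN 1 (edgeR adjusted p = 0.0679) and, under AZA, without VF AZA 2, 3 or 4 (0.0903 to 0.173).

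Cox7a2l (chr17:83501918-83517330), the supercomplex subunit whose promoter is shown above, stood at 107, 107, 79.4 and 204 CPM in VF vehicle. The treated groups lay lower, at 65.2, 78.7, 77.1 and 81.8 in VF IFN, 71.6, 56.1, 91.6 and 71.8 in VF AZA, and 64.0, 64.0, 69.4 and 68.4 in VF COMBO. VF COMBO did not overlap vehicle, whereas VF IFN and VF AZA did. The log2 changes were -0.72 ± 0.19 for IFN (SE, n = 4 and 4, edgeR adjusted p = 0.0346), -0.77 ± 0.19 for AZA (0.0342) and -0.90 ± 0.19 for COMBO (0.00299). Without VF vehicle 4 the values were -0.36 (edgeR adjusted p = 0.534), -0.42 (0.42) and, still called, -0.54 (0.0498). Under IFN no call was left without any 1 of the IFN libraries (edgeR adjusted p = 0.0725 to 0.193), and under AZA none without VF AZA 1, 2 or 4 (0.0682 to 0.177). Without VF vehicle 1 and 4 together the values were -0.29, -0.34 and -0.46, and the adjusted p under COMBO was 0.203 by edgeR.

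The other members called under COMBO in VF were spread over the complexes. Atp5e (chr2:174461072-174464105), the small epsilon subunit of the ATP synthase head, stood at 43.3, 43.5, 21.8 and 76.1 CPM in VF vehicle and at 13.8, 7.93, 15.3 and 26.0 in VF COMBO. The groups overlapped only through VF vehicle 3 and VF COMBO 4, and the log2 change was -1.55 ± 0.35 (SE, n = 4 and 4, edgeR adjusted p = 0.00465). Cox8a (chr19:7215153-7217616) stood at 47.5, 61.3, 51.6 and 160 CPM in VF vehicle and at 39.9, 20.6, 37.4 and 53.5 in VF COMBO, with a log2 change of -1.08 ± 0.31 (edgeR adjusted p = 0.0259). Here replicate 4 of vehicle lay far above the other 3. Ndufv3, an accessory subunit of the complex I electron input arm, went from 64.1, 53.0, 39.2 and 85.6 CPM to 30.6, 25.8, 35.1 and 40.1 (-0.88 ± 0.23, edgeR adjusted p = 0.0161). Uqcrh went from 76.3, 111, 60.8 and 89.9 CPM to 23.2, 40.9, 57.6 and 70.0 (-0.82 ± 0.24, edgeR adjusted p = 0.0329). The only member that rose was Atp5f1, a subunit of the ATP synthase peripheral stalk, from 46.3, 76.2, 72.9 and 34.7 CPM to 87.5, 71.2, 101 and 91.7 (0.61 ± 0.18, edgeR adjusted p = 0.0342). The 2 low values of Atp5f1 in vehicle were those of replicates 1 and 4.

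**Figure D5:**
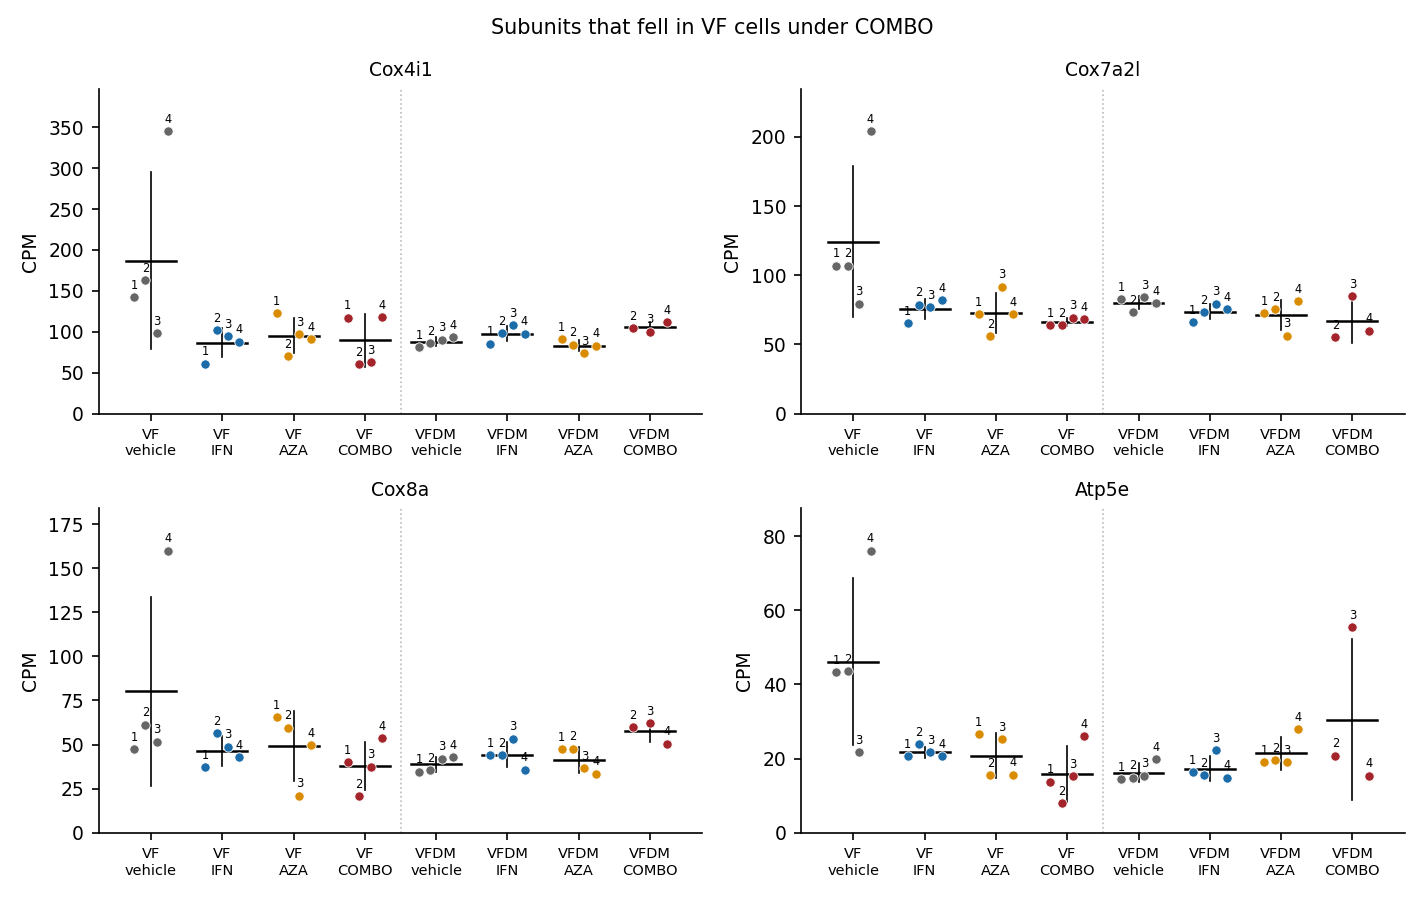
CPM of Cox4i1, Cox7a2l, Cox8a and Atp5e in each library by group, with replicate points, the mean as a line and the SD as a bar. VF vehicle 4 is the highest library for each of the 4 genes (345, 204, 160 and 76.1 CPM).

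Many of the calls in VF were lost when 1 library was left out, whereas Cox7a2l and Atp5e under COMBO were called without any 1 library of the 2 groups. Without VF vehicle 4, 0 members were called by edgeR under IFN, 0 under AZA and 2 under COMBO (Cox7a2l and Atp5e, the latter at -1.18, edgeR adjusted p = 0.0479). Without VF vehicle 3 the counts were 7, 7 and 8, without VF vehicle 2 they were 3, 3 and 11, and without VF vehicle 1 they were 2, 2 and 4. Leaving out VF IFN 1 gave 0 under IFN and leaving out VF IFN 2, 3 or 4 gave 1. Leaving out VF AZA 2 or 4 gave 0 under AZA and leaving out VF AZA 3 gave 1, and leaving out VF COMBO 3 gave 4 under COMBO. Besides VF vehicle 4, Cox8a also lost its call without VF COMBO 2 or 3, Ndufv3 without VF vehicle 1 or VF COMBO 2, Atp5f1 without VF vehicle 1 or VF COMBO 3, and Uqcrh without any of VF vehicle 1 and 2 and VF COMBO 1, 2 and 3 (edgeR adjusted p = 0.0505 to 0.135). Without VF vehicle 1 and 4 together, 0 members were called in all 3 comparisons. The medians were then -0.27 for IFN with 75 of 81 members negative, -0.16 for AZA and -0.06 for COMBO, and Cox4i1 had log2 changes of -0.59, -0.44 and -0.52. Under COMBO Atp5e was then at -1.03, Cox8a at -0.56, Ndufv3 at -0.46, Uqcrh at -0.81 and Atp5f1 at 0.26 (edgeR adjusted p = 0.174 to 0.522). Among other lists, 11, 13 and 14 of 35 cytosolic ribosomal proteins fell under IFN, AZA and COMBO (1, 4 and 4 without VF vehicle 1 and 4). The mitochondrial and small RNA values of VF vehicle 1 and 4, given above, enter the same comparisons, and their part was not tested.

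Companion genes and other lists were read in VF COMBO against the same vehicle libraries. Cycs, cytochrome c itself and no member by the symbol rule, rose from 6.14, 13.0, 12.9 and 4.80 CPM to 25.8, 15.2, 22.4 and 18.1, with a log2 change of 1.14 (edgeR adjusted p = 0.0211). Its low values in vehicle were those of replicates 1 and 4, and without them the log2 change was 0.67 (edgeR adjusted p = 0.362). The companions Cyc1 (complex III) and Ndufab1 (complex I and fatty acid synthesis) were not called in this comparison. Assembly factors had 3 of 48 higher, including Ndufaf4 (0.68) and Lrpprc (0.50), the citric acid cycle 2 of 18, Dlst (0.48) and Fh1 (0.83), and glycolysis 1 of 18 higher and 4 lower, with Ldhb at -2.20. Ndufaf4 (0.52), Lrpprc (0.56), Dlst (0.53), Fh1 (0.62) and Ldhb (-1.96) were not called without VF vehicle 1 and 4 (edgeR adjusted p = 0.0752 to 0.362). Among cell type markers 4 of 12 erythroid genes rose, such as Tfrc (1.64), as did 2 of 7 megakaryocyte and 3 of 5 T and NK cell genes. Without VF vehicle 1 and 4, with the filter applied again, 2 of 12, 0 of 7 and 0 of 6 were called higher. The T and NK cell markers summed to 17.3 to 136 CPM in VF COMBO, highest in replicate 1, and to 3.79 to 13.0 in VF vehicle. The part of these markers in the member values was not tested. VF COMBO against VF IFN gave 0 called members by edgeR (against 0.00902% of all rows), 0 by DESeq2 and 0 by limma voom, with 8 higher and 0 lower at an unadjusted p under 0.05. VF COMBO against VF AZA gave 0 by edgeR (against 1.85%), 1 by DESeq2 and 0 by limma voom, with 1 higher and 0 lower unadjusted. For both comparisons the shares of all rows at the unadjusted threshold are not given here.

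Under vehicle, Dnmt3a-deleted cells had lower values than Dnmt3a-intact cells for most members. Of 81, 63 were negative in VFDM vehicle against VF vehicle, with a median log2 change of -0.26 against -0.01 over all rows. By edgeR 3 were lower and 0 higher (3.7% and 0%, against 0.785% and 0.171% of all rows), and the groups did not overlap for 21 that were lower (25.9%, against 6.87%). Complex IV had the lowest median (-0.64), with 14 of 15 members negative. Atp5e stood at 14.5, 14.9, 15.4 and 19.9 CPM in VFDM vehicle, all below VF vehicle (-1.51 ± 0.35, SE, n = 4 and 4, edgeR adjusted p = 0.0232). Cox4i1 stood at 81.5, 86.3, 90.3 and 93.4 CPM (-1.09 ± 0.25, edgeR adjusted p = 0.0237). Ndufa2, a subunit of the electron input arm of complex I, stood at 18.8, 18.2, 22.5 and 21.2 CPM against 32.7, 43.8, 27.8 and 53.3 (-0.96 ± 0.24, edgeR adjusted p = 0.0447). For all 3 the 4 VFDM libraries lay close together and below the 4 VF libraries. Of 35 cytosolic ribosomal proteins 5 were lower in the same comparison by edgeR, with 2 positive values and a median of -0.50. Without VF vehicle 1 and 4, 0 of the 35 were called, with 0 positive values and a median of -0.4. The mitochondrial and small RNA values of the VF vehicle libraries differ in the same comparison, and their part was not tested.

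These genotype calls also turned on the VF vehicle libraries. Without VF vehicle 4, and without any 1 of the VFDM vehicle libraries, 0 members were called by edgeR. Without VF vehicle 3 the count was 12, without VF vehicle 1 it was 1, and without VF vehicle 2 it was 2 with a median of -0.11. The values without VF vehicle 4 were -1.13 for Atp5e (edgeR adjusted p = 0.263), -0.58 for Cox4i1 (0.397) and -0.76 for Ndufa2 (0.353). Atp5e also lost its call without VF vehicle 1 (0.0508), and Ndufa2 without VF vehicle 1 (0.066) or 2 (0.101). Without VF vehicle 1 and 4 together 0 were called, the median was -0.38 and 76 members were negative; Atp5e was then at -0.98 (0.924), Cox4i1 at -0.54 and Ndufa2 at -0.79 (edgeR adjusted p = 0.63).

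Between the treated groups of the 2 genotypes, at most 1 member was called in each comparison. VFDM IFN against VF IFN gave 0 called members by edgeR, DESeq2 and limma voom (against 0.00902% of all rows by edgeR), 0 at an unadjusted p under 0.05 and a median of 0.06. VFDM AZA against VF AZA gave 0 by the same 3 tools (against 0.74%), 0 unadjusted and a median of -0.04. Under COMBO the median was 0.06, and 1 member, Cox4i2, was lower in VFDM (1.23%, against 3.91% of all rows). It stood at 11.3, 1.52, 0 and 0.60 CPM in VF COMBO, or 323 counts, against the 1 count in VFDM COMBO, a ratio of 0.00388 (exact 95% counting interval 9.79e-05 to 0.0218, edgeR adjusted p = 0.0194). Replicate 1 held most of these counts, VF COMBO 3 was at 0, and the groups overlapped. Without VF COMBO 1 (edgeR adjusted p = 0.0922), VFDM COMBO 3 (0.0854) or VFDM COMBO 4 (0.0898) Cox4i2 was not called, and the count of called members was 2 without VF COMBO 3 and 3 without VF COMBO 4.

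Whether the genotypes respond differently was tested directly, as the response in VFDM minus the response in VF. For COMBO 4 members were called, all with a higher response in VFDM (4.94% of members, against 1.25% of all rows called higher), and 58 of 81 values were positive with a median of 0.37 against -0.06. Complex IV had the highest median, 0.67, with 14 of 15 members positive. Atp5e had the largest difference, 2.46 ± 0.50 (SE, edgeR adjusted p = 0.00337): it fell by 1.55 on the log2 scale in VF, and in VFDM it went from 14.5, 14.9, 15.4 and 19.9 CPM to 20.8, 55.4 and 15.4, with VFDM COMBO 3 far above the others. Cox8a differed by 1.64 ± 0.45 (edgeR adjusted p = 0.0312) and stood at 34.6, 35.6, 42.0 and 42.9 CPM in VFDM vehicle and at 59.7, 62.1 and 50.5 in VFDM COMBO, which did not overlap. Cox6a1 (chr5:115345642-115348981) differed by 1.58 ± 0.43 (edgeR adjusted p = 0.0324). It stood at 29.4, 41.3, 28.4 and 59.2 CPM in VF vehicle, 17.0, 10.1, 28.2 and 34.3 in VF COMBO, 18.6, 16.1, 20.3 and 22.0 in VFDM vehicle, and 29.2, 37.1 and 31.7 in VFDM COMBO. The VFDM groups were apart and the VF groups overlapped. Cox4i1 differed by 1.32 ± 0.36 (edgeR adjusted p = 0.0338), with 104, 100 and 112 CPM in VFDM COMBO, all above VFDM vehicle.

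Atp5e was the most stable of the 4, called in 22 of 24 alternative settings with values of 0.99 to 2.80, and at 2.14 (edgeR adjusted p = 0.0123) without VF vehicle 4. Without that library Cox6a1 (1.35, edgeR adjusted p = 0.0884), Cox4i1 (0.87, 0.101) and Cox8a (1.09, 0.117) were not called. Without VF vehicle 1 and 4 only Atp5e was called (1.98, edgeR adjusted p = 0.0462). Other libraries also decided these calls: 1 member was left without VFDM vehicle 1 or VFDM vehicle 2, 2 without VF COMBO 2, VFDM vehicle 3 or VFDM COMBO 3, and 7 without VF COMBO 4. Cox6a1 further lost its call without VF COMBO 1, Cox4i1 without VF COMBO 3 or VFDM COMBO 4, and Cox8a without VFDM COMBO 2 (edgeR adjusted p = 0.0512 to 0.062). For IFN and AZA 0 members were called by edgeR, DESeq2 and limma voom (against 0.0% and 0.582% of all rows by edgeR). At an unadjusted edgeR p under 0.05, 16 and 14 were higher and 0 lower. The shares of all rows at that threshold are not given here, so these counts do not set the members apart from other rows. The medians were 0.29 for IFN and 0.23 for AZA. Leaving out VF vehicle 3 gave 1 called member in each, and leaving out VF vehicle 2 gave medians of 0.15 and 0.11. All 3 differences use both vehicle groups. Other lists had calls in the COMBO difference as well: 6 of 35 cytosolic ribosomal proteins had a higher response in VFDM (median 0.58), as did 5 of 12 erythroid markers, and 5 of 11 stem-cell markers had a lower one. Without VF vehicle 1 and 4 these counts were 2, 0 and 4. The part of these lists in the member differences was not tested.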

How the data were processed

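Bulk RNA-seq of sorted stem cells was read from the table of gene counts that the authors deposited, whole-number counts per gene and library. Per the labels' protocols, RNA was isolated with PicoPure and libraries were made with Takara SMART-Seq Stranded; per the submitters' processing notes, the tools were STAR 2.7.10a and featureCounts, with R 4.3.0 and FastQC 0.11.5, on mm10. For the annotation, strand setting and multimapping reads, nothing is stated in the sources used here. Symbols, biotypes and exon lengths came from GENCODE vM21 (55141 of 55492 rows matched).

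Counts were fitted with edgeR 4.0.16 in R 4.3.3 (filterByExpr with a count minimum of 10, TMM scaling, 1 mean per group, robust quasi-likelihood, common dispersion 0.418), with 31 libraries in 1 fit and 17 comparisons. Calls are two-sided at a Benjamini-Hochberg adjusted p under 0.05 over all 22172 rows kept. CPM divides counts by TMM-scaled library size. The shallowest library had 17782394 counts, and counting intervals and floors (95%, 3 counts) cover counting error only. The fit was tested on simulated counts. DESeq2 1.42.0, limma 3.58.1 voom and other filters, scalings and library sets were alternatives; leaving out VF vehicle 1 and 4, and leaving out libraries under 20000 detected rows, were added after seeing the data. Replicates of a group differed by 21 to 790 chi-square units per degree of freedom over 45 pairs, so none was a duplicate. Members and lists were chosen with earlier results of these data known. Named genes were all members called, the highest subunit of each complex, the isoform families and up to 3 genes a list; Atp5c1 and the library values of Dnmt3a and Procr were added after their values were seen.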

Additional observations from a re-analysis of the deposited data

Results flagged for a closer look

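Within groups of 4 libraries, 157 groups over 23 measures were searched by Dixon's test at the 95% level. It looks for a library far from its nearest neighbour relative to the group's range, and 15 stood out. For independent, normally distributed values chance gives about 1 in 20 groups. The measures were members called in these data, the highest subunits and overlapping sums, and some values were near 0. The search therefore cannot say whether 15 exceeds chance. Only 2 of the 15 were in VF vehicle, Cox8a in replicate 4 (160 CPM, next 61.3) and the complex III sum in replicate 2 (493 CPM, next 358). In VFDM vehicle 4, Atp5b was at 337 CPM (next 305) and Atp5e at 19.9 (next 15.4). VFDM AZA 4 was highest for Atp5e (28.0 CPM, next 19.5) and lowest for Ndufa2 (9.80, next 22.4). Cox4i2 was at 11.3 CPM in VF COMBO 1 (next 1.52) and at 0 in VFDM IFN 2 (next 1.31). Cox6a2 reached 0.51 CPM in VF COMBO 4, 0.133 in VF IFN 4 and 0.0592 in VF AZA 1, with the other libraries of these groups at 0 except VF IFN 2 (0.0203). Ndufb9 was at 45.6 CPM in VFDM IFN 1 (next 54.3), and Sdha at 222 in the library labelled VFDM IFN 3 (next 199). The complex III sum was 480 CPM in VF AZA 1 (next 347), and the mitochondrially encoded sum 5740 in VF AZA 3 (next 8000).

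By the test of the difference itself, 4 members responded to COMBO differently in the 2 genotypes, all higher in VFDM: Atp5e by 2.46, Cox8a by 1.64, Cox6a1 by 1.58 and Cox4i1 by 1.32 on the log2 scale. Atp5e, Cox8a and Cox4i1 fell in VF COMBO against a vehicle group whose replicate 4 was the highest library for each of them. For Cox6a1, not called in that comparison, VF vehicle 4 was also the highest library (59.2 CPM).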

How the results depend on the processing

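Counts here are of called members, with each treated group set against the vehicle group of its genotype unless another group is named. They compare settings only, because the shares of all rows called in each setting are not given here. Leaving out 1 library at a time, the counts ran from 0 to 7 for VF IFN (2 with all libraries), 0 to 7 for VF AZA (2), 2 to 11 for VF COMBO (7), 2 to 8 for VFDM COMBO (4), 0 to 12 for VFDM against VF vehicle (3), 0 to 3 for VFDM against VF COMBO (1), 0 to 2 for VFDM COMBO against VFDM IFN (1) and against VFDM AZA (1), 1 to 7 for the genotype difference in COMBO response (4), and 0 to 1 for those in IFN and AZA response (0). No filter on low counts gave 1 for VF IFN, 0 for VF AZA, 1 for VFDM against VF vehicle, 0 for VFDM COMBO against VFDM IFN and 2 for the COMBO response difference. RLE size factors gave 3 for VFDM COMBO against VFDM IFN and 2 against VFDM AZA. Protein-coding rows alone gave 0 for VF AZA, 11 for VFDM COMBO, 4 for VFDM COMBO against VFDM IFN and 2 against VFDM AZA. DESeq2 gave 7 for VF IFN, 5 for VF AZA, 9 for VFDM COMBO, 9 for VFDM against VF vehicle, 2 for VFDM against VF COMBO, 1 for VF COMBO against VF AZA, 4 for VFDM COMBO against VFDM IFN, 2 against VFDM AZA, and 9 for the COMBO response difference. limma voom gave 5 for VF IFN, 0 for VF AZA, 0 for VF COMBO, 2 for VFDM IFN, 19 for VFDM COMBO, 15 for VFDM against VF vehicle, 0 for VFDM against VF COMBO, 3 for VFDM COMBO against VFDM IFN, 2 against VFDM AZA, and 0 for the COMBO response difference. Fitting only the groups compared gave 0 for VF IFN, 0 for VF AZA, 0 for VF COMBO, 1 for VFDM IFN, 1 for VFDM AZA, 25 for VFDM COMBO, 1 for VFDM against VF vehicle, 0 for VFDM against VF COMBO, 3 for VFDM COMBO against VFDM IFN, 0 against VFDM AZA, and 1 for the COMBO response difference. Without the libraries under 20000 detected rows the counts were 9 for VF IFN, 0 for VF AZA, 0 for VF COMBO, 23 for VFDM COMBO, 12 for VFDM against VF vehicle, 0 for VFDM against VF COMBO, 8 for VFDM COMBO against VFDM IFN, 4 against VFDM AZA, and 0 for the COMBO response difference. VF COMBO then had 1 library, assumed to vary like the other groups, so the counts of 0 that involve it say nothing about stability. Without VF vehicle 1 and 4 they were 0 for VF IFN, VF AZA, VF COMBO and VFDM against VF vehicle, 3 for VFDM COMBO against VFDM IFN, 2 against VFDM AZA, and 1 for the COMBO response difference. Same-numbered libraries did not deviate together (median correlation -0.001 over 105 pairs, -0.002 over 315 differently numbered pairs), so the numbers do not pair them; a replicate block gave 1 for VF AZA, 2 for VFDM COMBO and 0 for VFDM COMBO against VFDM IFN, and stayed within 1.5 times elsewhere. The cause was not tested for any of these shifts, except that fewer libraries enter some fits.

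The median member change kept its sign under every setting run for VFDM COMBO (0.35 to 0.46), VFDM IFN (0.09 to 0.22), VFDM AZA (0.11 to 0.19) and VFDM against VF vehicle (-0.38 to -0.11). It did not for VF IFN (-0.27 to 0.04), VF AZA (-0.16 to 0.14) and VF COMBO (-0.06 to 0.26). Limits are the 3 or 4 libraries per group, the spread of VF vehicle, and the low counts of Cox4i2 and Cox6a2.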
